A study of Mus musculus with 16 samples.

Results

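The genes described here are 37 genes of lipid synthesis: the SREBP regulators of lipid supply, the enzymes that make, elongate and desaturate fatty acids, the enzymes of sterol synthesis, 3 sterol transport proteins, and 5 enzymes of phospholipid synthesis. They were chosen by name and not by their values, though with earlier results of these data known. Each is represented by the probe sets that the array's annotation assigns to that gene alone, and a gene with several was read from its probe set of highest mean intensity over all 16 arrays. In this way 36 of the 37 were found among 18193 named genes, with 92 probe sets in all (7 genes with 1 probe set and 29 with several). The remaining gene, Acsl1, an acyl-CoA ligase, was not analysed here.

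The study followed mice that carry Eμ-xbp-1s, a transgene of the spliced mouse xbp-1s cDNA behind the immunoglobulin VH promoter and Eμ enhancer, with farnesylated eGFP behind an IRES. These control elements are active throughout B cell development and also in some T cells, so the transgene is not restricted to plasma cells. All mice were on the C57BL/6 background. RNA was hybridized to Affymetrix 430 2.0 arrays in 3 groups: Eμ-xbp-1s MM, tumor RNA from transgenic mice with multiple myeloma (n = 6), B220+ B cells from spleens of transgenic mice 20 weeks old (Eμ-xbp-1s B cells, n = 5), and the same cells from nontransgenic mice 20 weeks old (n = 5), both taken with magnetic beads. The tumor site, the founder line and the exact age behind each MM array are not given in the sources used here, and no cell sort is named for the tumors. In this model MM arises in old mice, while the B cell donors were young, so the MM and B cell arrays differ in disease, tissue preparation and age at once, and these cannot be told apart. Whether each MM sample had its own mouse is not stated either, so p-values for MM measure only the spread between these samples.

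SREBPs are transcription factors that are made as membrane proteins of the endoplasmic reticulum, where SCAP escorts them and INSIG proteins hold them back while sterol is plentiful. When sterol falls, SREBPs are cut free in the Golgi and switch on the genes of fatty acid and sterol synthesis. XBP-1s, the spliced form of the unfolded protein response factor, is known to enlarge the endoplasmic reticulum of secretory cells, and in cultured fibroblasts its expression raises phosphatidylcholine synthesis through the choline pathway. The question put to the arrays here was whether the genes of these pathways stood at different levels in Eμ-xbp-1s MM, in Eμ-xbp-1s B cells and in nontransgenic B cells.

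Values are intensities on a linear scale, computed by the authors with dChip from normalized arrays. For the tests, intensities under 50 were set to 50, a probe set was kept if more than 20% of the compared arrays exceeded 100, and log2 values were compared with limma, with a separate fit for each pair of groups. A gene was called at a Benjamini-Hochberg adjusted p under 0.01 over all probe sets tested. The median intensity of an array lay between 69.3 and 82.9 in MM, between 69.0 and 73.5 in Eμ-xbp-1s B cells and between 70.8 and 73.0 in nontransgenic B cells. Xbp1 itself was at 1477 to 4979 in MM, 2040.2 to 3108 in Eμ-xbp-1s B cells and 1802 to 2452 in nontransgenic B cells, so its brightest probe set did not separate the groups. Spliced and unspliced Xbp1 were not told apart here. By RT-PCR and western blot, the study found more spliced transcript and XBP-1s protein in splenic B cells of younger transgenic mice than in controls. The summed intensity of 8 mature B cell markers was 711.6 to 13653 in MM, 13304 to 26678 in Eμ-xbp-1s B cells and 31564 to 34814 in nontransgenic B cells, and MM replicates 4 and 5 held the lowest sums (1386 and 711.6). Of 6 T cell markers, 6 were called higher in Eμ-xbp-1s than in nontransgenic B cells, as were 3 of 4 NK cell, 4 of 6 tested neutrophil, 2 of 7 macrophage and 1 of 3 tested erythroid markers. Of 6 plasma cell markers tested, none was called higher in any comparison, and in MM 1 was called lower than in nontransgenic B cells, with median log2 fold changes of −0.46 against Eμ-xbp-1s and −0.20 against nontransgenic B cells. Of 8 markers of stroma and endothelium, 5 were called higher in MM than in Eμ-xbp-1s B cells and 6 higher than in nontransgenic B cells, and of 7 mitosis genes 5 and 6 were called higher in the same comparisons. The part of these differences in cell content in any result below was not tested, and in bulk RNA fewer cells of a type and less RNA per cell cannot be told apart.

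Of the 36 lipid genes, 2 passed the test in any comparison: Lpin1 was higher in both Eμ-xbp-1s groups than in nontransgenic B cells, and Scd1 was lower in MM than in either B cell group. Lipin 1, the product of Lpin1, converts phosphatidic acid to diacylglycerol, from which phosphatidylcholine and phosphatidylethanolamine are built. Stearoyl-CoA desaturase 1, the product of Scd1, makes monounsaturated from saturated fatty acids.

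In MM against Eμ-xbp-1s B cells, 35 of the 36 were tested, 0 were called higher and 1 lower, beside 1.49% of all named genes called higher and 1.67% called lower. At an unadjusted p under 0.05, 4 were higher and 4 lower, which is 22.9% of those tested beside 27.1% of all named genes. Against nontransgenic B cells, 35 were tested in MM, and 1 was called higher and 1 lower, beside 4.66% and 4.76% of all named genes. There, an unadjusted p under 0.05 was reached by 7 in the higher and 5 in the lower direction (34.3%, beside 34.4% of all named genes). In the comparison of Eμ-xbp-1s B cells with nontransgenic B cells, 31 were tested, 1 was called higher and 0 lower, beside 3.28% and 0.192% of all named genes, and at an unadjusted p under 0.05 the counts were 6 higher and 3 lower (29.0%, beside 18.9% of all named genes). A single gene is 2.86% of 35 and 3.23% of 31, so the counts at the adjusted threshold lay near the background. At the unadjusted threshold the widest gap was the one between the B cell groups, 29.0% beside 18.9%, and it was not tested.

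The medians over the tested lipid genes lay near those over all named genes. The median log2 fold change was 0.02 in MM against Eμ-xbp-1s B cells (0.01 over all named genes), 0.10 in MM against nontransgenic B cells (0.01) and −0.02 between the B cell groups (−0.02). Mvd was too low to be tested in any comparison, and Mvk, Fdft1, Cyp51 and Chpt1 were too low in the comparison of the B cell groups. These 4 entered the comparisons with MM only through their brighter MM arrays, so their values there are not independent of that filter.

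**Figure D1:**
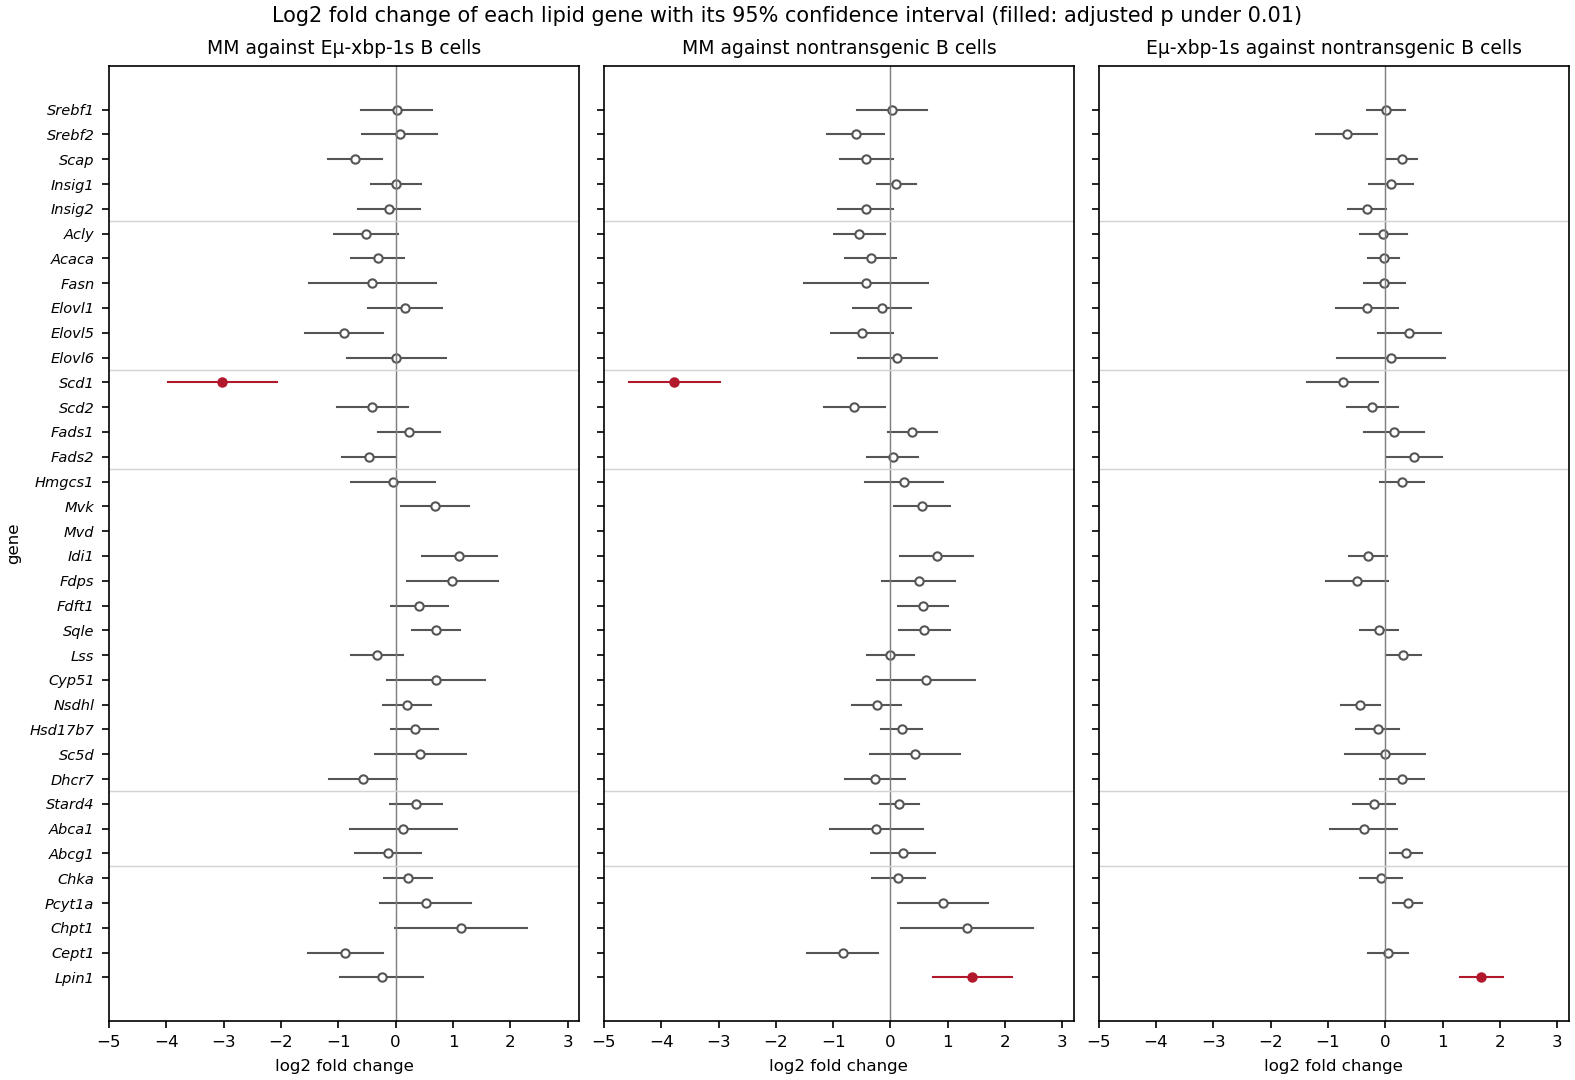
Log2 fold change (horizontal axis) of each of the 36 lipid genes, grouped by branch from top to bottom, with its 95% confidence interval from limma, in MM against Eμ-xbp-1s B cells (left), MM against nontransgenic B cells (middle) and the 2 B cell groups, Eμ-xbp-1s over nontransgenic (right). Filled points passed an adjusted p under 0.01 (Scd1 to the left of 0 in both comparisons of MM, Lpin1 to the right of 0 in both comparisons with nontransgenic B cells), and rows without a point were not tested.

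Lpin1 gave the clearest difference between the transgenic and nontransgenic B cells. Its intensity was 317, 413, 501, 138, 226 and 159 on the 6 MM arrays, 258, 235, 344, 348 and 402 in Eμ-xbp-1s B cells and 82.9, 119.5, 85.9, 109 and 95.5 in nontransgenic B cells. Every Eμ-xbp-1s B cell array stood above every nontransgenic array, and so did every MM array, although MM replicates 4 and 6 came close to the highest nontransgenic value. The groups averaged 293 ± 145 in 6 MM samples, 317 ± 68.9 in Eμ-xbp-1s B cells and 98.4 ± 15.5 in nontransgenic B cells (mean ± SD, n = 5 for each B cell group). Lpin1 was 3.19-fold higher in Eμ-xbp-1s than in nontransgenic B cells, with a log2 fold change of 1.67 (standard error 0.17, limma adjusted p = 7.9e-05), and its other probe set was called as well, with a log2 fold change of 1.40 (standard error 0.15, limma adjusted p = 8.2e-05).

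In MM, Lpin1 was 2.69-fold higher than in nontransgenic B cells, with a log2 fold change of 1.43 (standard error 0.32, limma adjusted p = 0.00801). That call lay close to the threshold. It was lost, with the direction kept, when any 1 nontransgenic array or MM replicate 1, 2 or 5 was left out (limma adjusted p up to 0.0253), and the other probe set had a log2 fold change of 1.10 (standard error 0.28) at an adjusted p of 0.0159. It was also lost with a replicate block, with every probe set tested, with a pseudocount of 50 or with the floor at 100, at limma adjusted p values of 0.0109 to 0.0267. Without MM replicates 4 and 5 the log2 fold change was 1.71 (limma adjusted p = 0.00342). MM did not differ detectably from Eμ-xbp-1s B cells, with a log2 fold change of −0.25 (standard error 0.33, limma adjusted p = 0.676) and a 95% confidence interval of −0.96 to 0.47.

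Scd1 was the member with the largest fold change among the 36 in both comparisons with MM. Its intensity was 338, 341, 583, 127, 124 and 343 on the MM arrays, 3447, 3062, 973, 2113 and 2248 in Eμ-xbp-1s B cells and 3742, 4037, 3672, 3148 and 3714 in nontransgenic B cells. No MM array reached the lowest B cell array of either group, and within MM replicates 4 and 5 were lowest. Eμ-xbp-1s B cell replicate 3 stood far under the other 4 of its group. Scd1 averaged 309 ± 170.4 in 6 MM samples, 2368 ± 958 in Eμ-xbp-1s B cells and 3663 ± 322 in nontransgenic B cells (mean ± SD, n = 5 for each B cell group).

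Scd1 was 8.14-fold lower in MM than in Eμ-xbp-1s B cells, with a log2 fold change of −3.03 (standard error 0.44, limma adjusted p = 0.00178), and 13.7-fold lower than in nontransgenic B cells, with a log2 fold change of −3.77 (standard error 0.36, limma adjusted p = 4.2e-05). A second probe set of Scd1 gave smaller differences, with a log2 fold change of −1.04 (standard error 0.40, limma adjusted p = 0.117) against Eμ-xbp-1s B cells, which did not pass, and −1.96 (standard error 0.33, limma adjusted p = 0.00164) against nontransgenic B cells, which did. With MM replicates 4 and 5, the arrays of lowest B cell marker sums, left out, the log2 fold changes were −2.48 (limma adjusted p = 0.00283) against Eμ-xbp-1s and −3.23 (7.5e-06) against nontransgenic B cells. Against Eμ-xbp-1s B cells the call was lost with no filter on low values (log2 fold change −3.03, limma adjusted p = 0.0114) and with a replicate block (−3.10, limma adjusted p = 0.0125). The mature B cell markers had median log2 fold changes of −2.44 and −3.19 in the same comparisons, with 2 and 4 of 8 called lower. Between the B cell groups Scd1 did not pass, with a log2 fold change of −0.75 (standard error 0.28, limma adjusted p = 0.159).

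**Figure D2:**
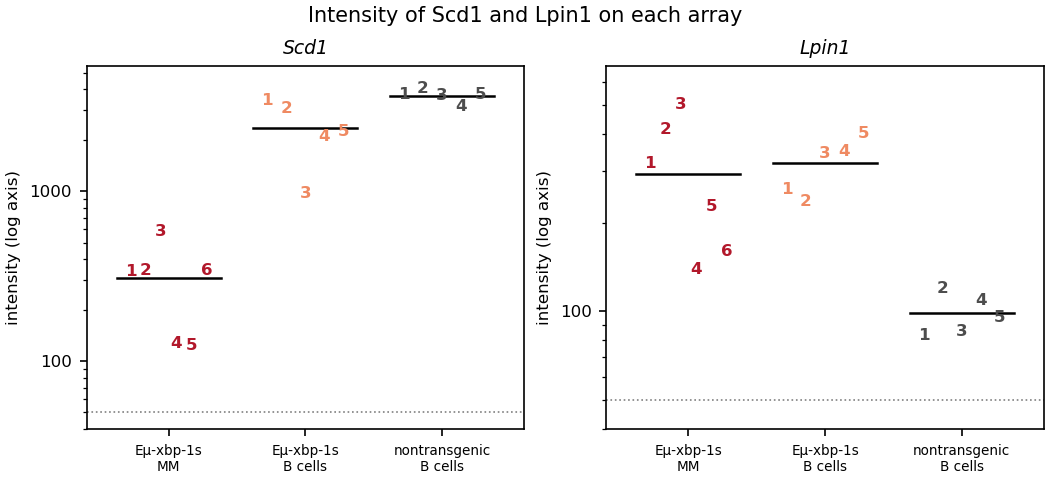
Intensity (log axis) of Scd1 (left) and Lpin1 (right) on each array of Eμ-xbp-1s MM, Eμ-xbp-1s B cells and nontransgenic B cells. Numbers are replicate numbers, black lines group means and the dotted line the floor of 50, and all 6 MM arrays lie under all B cell arrays for Scd1, and all 11 Eμ-xbp-1s arrays lie over all nontransgenic arrays for Lpin1.

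Promoters of the lipid genes were read for the sequences that SREBPs and their partner NF-Y are known to bind, and for the core that XBP-1 binds. RefSeq (build GRCm38.p6) gave the 250 bases before a start site for 28 of the 36 genes, with 40 promoters in all. The sterol regulatory element core TCACNCCAC, searched on both strands, was found in 3 of the 40 promoters (that of Hmgcs1 and 2 overlapping ones of Pcyt1a), which is 7.5%, beside 1.05% of 32851 promoters of the genome. The NF-Y box CCAAT, also on both strands, was found in 20 of the 40 (50%), beside 33.8% of all promoters, and TGACGTG in 0 of the 40, beside 1.65% of all. Promoters of the same gene can overlap and are not independent. The sequences of Hmgcs1 (chr13:119690101-119690350, plus strand) and Pcyt1a (chr16:32430671-32430920, plus strand) are shown because they hold the sterol regulatory element core, and that of Lpin1 (chr12:16610967-16611216, minus strand) because it was the gene that rose. The first 2 end at the annotated 5′ end of their gene. That of Lpin1 ends at an internal start, 42937 bases inside the annotated gene (16535669 to 16653903), and the promoter at its 5′ end was not analysed here. Each is given 5′ to 3′ and ends at the base before the start site, with capitals for TCACNCCAC and for CCAAT or its reverse complement ATTGG. A match is only a description of the letters, and the absence of one says nothing of what binds there.
Hmgcs1: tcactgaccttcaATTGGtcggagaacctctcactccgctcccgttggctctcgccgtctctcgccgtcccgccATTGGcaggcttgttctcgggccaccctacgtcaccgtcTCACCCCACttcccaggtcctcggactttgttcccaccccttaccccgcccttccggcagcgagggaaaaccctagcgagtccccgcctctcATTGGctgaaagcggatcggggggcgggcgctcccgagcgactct
Pcyt1a: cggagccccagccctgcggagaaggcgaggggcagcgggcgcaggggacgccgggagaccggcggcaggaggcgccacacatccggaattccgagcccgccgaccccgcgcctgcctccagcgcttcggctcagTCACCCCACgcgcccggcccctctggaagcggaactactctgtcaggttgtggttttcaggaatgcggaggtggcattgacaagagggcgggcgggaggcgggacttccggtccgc
Lpin1: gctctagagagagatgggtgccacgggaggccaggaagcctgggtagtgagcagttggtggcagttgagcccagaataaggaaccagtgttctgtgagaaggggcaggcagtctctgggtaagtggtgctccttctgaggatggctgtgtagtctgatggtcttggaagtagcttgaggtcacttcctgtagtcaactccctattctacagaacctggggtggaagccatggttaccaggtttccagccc

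Among the SREBP regulators, none of 5 passed the test in any comparison. Srebf1, which encodes the SREBP of fatty acid synthesis, was at 217 to 766 in MM, 358 to 502 in Eμ-xbp-1s B cells and 356 to 525 in nontransgenic B cells, with overlapping groups and log2 fold changes between 0.01 and 0.02. Srebf2, which encodes the SREBP of sterol synthesis, was at 784, 683, 524, 409, 350.3 and 345 in MM, 789, 631, 292, 367 and 418 in Eμ-xbp-1s B cells and 845, 809.5, 609, 719 and 768 in nontransgenic B cells. Replicates 3, 4 and 5 of the Eμ-xbp-1s B cells and replicates 3 to 6 of MM were below every nontransgenic array, while replicates 1 and 2 of each were within their range. The difference between the B cell groups, with a log2 fold change of −0.67 (standard error 0.25, limma adjusted p = 0.141), and that of MM against nontransgenic B cells, with a log2 fold change of −0.60 (standard error 0.23, limma adjusted p = 0.0811), did not pass.

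Scap, the escort of the SREBPs, had MM arrays at 342, 369, 495, 293, 205 and 431, Eμ-xbp-1s B cell arrays at 525, 539.5, 604, 616 and 525 and nontransgenic arrays at 375, 520.5, 466, 497 and 453. The 2 transgenic groups did not overlap, with MM the lower, but the difference did not pass, with a log2 fold change of −0.71 (standard error 0.22, limma adjusted p = 0.0548). In that comparison, of 35 lipid genes tested, the groups were apart in the lower direction for 2 (Scap and Scd1), beside 4.15% of all named genes, and in the higher direction for 0, beside 4.29%. The Eμ-xbp-1s and nontransgenic B cells did not overlap either, with a log2 fold change of 0.29 (standard error 0.12, limma adjusted p = 0.223). Insig1 and Insig2, whose products retain SCAP, overlapped in every comparison, with Insig1 at 184 to 287 in MM, 177 to 327 in Eμ-xbp-1s B cells and 185 to 244 in nontransgenic B cells. The 95% confidence interval for Insig1 in MM against Eμ-xbp-1s B cells ran from −0.44 to 0.44 on the log2 scale.

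None of the 6 genes of fatty acid synthesis and elongation passed the test. Fasn, which encodes fatty acid synthase, had 691, 768, 618, 222, 140.3 and 106 on the MM arrays, 559, 503, 302, 398 and 410.4 in Eμ-xbp-1s B cells and 408, 482, 434, 438 and 392 in nontransgenic B cells. MM replicates 1 to 3 lay above every B cell array of either group and replicates 4 to 6 below every one, so that the MM mean of 424 ± 299.8 (SD, n = 6) described no single array, and the log2 fold change was −0.41 against Eμ-xbp-1s B cells with a 95% confidence interval of −1.52 to 0.70. Acly, which supplies cytosolic acetyl-CoA, was at 436 to 984 in MM, 656 to 1457 in Eμ-xbp-1s B cells and 974 to 1097 in nontransgenic B cells, with a log2 fold change of −0.55 (standard error 0.20, limma adjusted p = 0.076) for MM against nontransgenic B cells. Acaca, which encodes the acetyl-CoA carboxylase that makes malonyl-CoA, was at 96.9 to 229.7 in MM, 159.6 to 216 in Eμ-xbp-1s B cells and 181 to 221 in nontransgenic B cells, and it did not pass.

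Elovl5, an elongase of polyunsaturated fatty acids, was at 507, 823, 912, 724, 361 and 429.8 in MM, 1765, 1502, 726, 1168 and 746 in Eμ-xbp-1s B cells and 954, 1019, 734, 794 and 695 in nontransgenic B cells. Replicates 1 and 2 of the Eμ-xbp-1s B cells were above every other array, and MM replicates 1, 5 and 6 below every B cell array. The difference between MM and Eμ-xbp-1s B cells did not pass, with a log2 fold change of −0.91 (standard error 0.31, limma adjusted p = 0.0851). The other probe set of Elovl5 gave a larger difference there, −1.21 (limma adjusted p = 0.0268), and 0.69 (0.0407) between the B cell groups. Neither passed the threshold of 0.01. Elovl6, which lengthens palmitate to stearate, ranged from 95.1 to 229 in MM, 37.3 to 255 in Eμ-xbp-1s B cells and 76.2 to 193 in nontransgenic B cells, with its lowest value, on Eμ-xbp-1s replicate 2, under the floor of 50. In both B cell groups, replicates 1 and 2 were under replicates 3 to 5. Elovl1, an elongase of very long chains, overlapped in all comparisons by its brightest probe set (268 to 631 in MM, 289 to 647 in Eμ-xbp-1s B cells and 412 to 638 in nontransgenic B cells). Its other tested probe sets had the opposite sign between the B cell groups, with log2 fold changes of 0.34 and 0.38 against −0.31. They did so in MM against Eμ-xbp-1s B cells too (−0.39 and −0.33 against 0.16), and none was called.

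Beside Scd1, the other 3 desaturases did not pass by their brightest probe sets. Scd2, the related enzyme, was at 370.3, 595, 747, 263, 565 and 418 in MM, 754, 664, 354, 724 and 696 in Eμ-xbp-1s B cells and 581, 752, 706, 754 and 843 in nontransgenic B cells. All 3 groups overlapped, and the log2 fold changes of MM were −0.40 (limma adjusted p = 0.398) against Eμ-xbp-1s and −0.63 (0.0866) against nontransgenic B cells. Those of Scd1 were −3.03 and −3.77. The other tested probe sets of Scd2 differed from each other in sign in every comparison, and none was called. With Eμ-xbp-1s B cells as the reference, they gave 0.41 and −0.22 in MM. With nontransgenic B cells as the reference, they gave −0.48 and 0.07. Between the B cell groups they gave −0.89 and 0.29, where the brightest gave −0.23. Fads2, which encodes the delta-6 desaturase, was at 107 to 195 in MM, 133 to 256 in Eμ-xbp-1s B cells and 103 to 198 in nontransgenic B cells, with a log2 fold change of 0.51 (standard error 0.22, limma adjusted p = 0.22) between the B cell groups. In MM against Eμ-xbp-1s B cells its log2 fold change was −0.47. Another probe set of Fads2, which passed the filter only in that comparison, gave 0.46, and neither was called. Fads1, the delta-5 desaturase, was at 87.3 to 173 in MM, 75.3 to 184 in Eμ-xbp-1s B cells and 73.5 to 123 in nontransgenic B cells. A dimmer probe set of Fads1 was called in MM against nontransgenic B cells, with a log2 fold change of 1.36 (standard error 0.29, limma adjusted p = 0.00687), where the brightest gave 0.38 (0.183), so the probe sets of this gene disagreed. The dimmer probe set was too low to be tested between the B cell groups. It entered the comparisons with MM only through its brighter MM arrays, so its call is not independent of that filter.

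None of the genes of sterol synthesis passed the test, of 12 tested in each comparison with MM and 9 in the comparison of the B cell groups. In MM, 9 of the 12 had a positive log2 fold change against each B cell group, with a median of 0.42 against Eμ-xbp-1s and 0.46 against nontransgenic B cells, beside 0.01 over all named genes in each comparison. In the B cell groups the median over 9 was −0.11. Mvk, Fdft1 and Cyp51 are among the 12 and had entered through their MM arrays, and both comparisons use the same MM arrays, so neither the counts nor the medians are evidence for the branch.

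Idi1, which encodes the isomerase of the 5-carbon building block of sterols, had 390.0, 436, 371, 140.3, 176 and 222 on the MM arrays, 151, 136, 121, 118 and 95.8 in Eμ-xbp-1s B cells and 146, 124, 145, 174 and 174 in nontransgenic B cells. MM replicates 1 to 3 were well above every B cell array, while replicate 4 was inside the range of both B cell groups. Against Eμ-xbp-1s B cells the fold change was 2.16, with a log2 fold change of 1.11 (standard error 0.30, limma adjusted p = 0.0356), which missed the threshold of 0.01, and without MM replicates 4 and 5 it passed, with a log2 fold change of 1.49 (limma adjusted p = 0.00465). Sqle, squalene epoxidase, was at 267, 207, 133, 168, 204 and 158 in MM, 114, 103, 112, 134 and 109 in Eμ-xbp-1s B cells and 103, 99.4, 118, 151 and 152 in nontransgenic B cells. All MM arrays but replicate 3 were above every Eμ-xbp-1s B cell array, and the difference, with a log2 fold change of 0.70 (standard error 0.19, limma adjusted p = 0.0366), missed the threshold as well.

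Fdps, which makes farnesyl diphosphate, was at 426, 331, 158, 268, 274 and 114 in MM, 184, 181, 70.4, 89.7 and 120.5 in Eμ-xbp-1s B cells and 187, 168, 158, 175 and 163 in nontransgenic B cells. The Eμ-xbp-1s B cells fell into replicates 1 and 2, near the nontransgenic values, and replicates 3 to 5, under them, and MM overlapped both groups, with a log2 fold change of 0.99 (standard error 0.36, limma adjusted p = 0.103) against Eμ-xbp-1s B cells. Cyp51, the lanosterol demethylase, had 166, 220.0, 129, 37.1, 54.5 and 35 in MM, 71.5, 57.9, 53, 55.6 and 30.3 in Eμ-xbp-1s B cells and 45.9, 58.1, 65.1, 66.5 and 64.1 in nontransgenic B cells. MM replicates 1 to 3 were above every B cell array, and the other 3 were near or under the floor of 50.

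Hmgcs1, the synthase that makes HMG-CoA, showed the same division of the MM arrays, with 377, 492, 484, 163, 155 and 277 in MM, 270.4, 255, 358, 438 and 236 in Eμ-xbp-1s B cells and 215, 235, 259, 278 and 262 in nontransgenic B cells. Replicates 4 and 5 were under every B cell array, replicates 2 and 3 above every one, and the log2 fold change against Eμ-xbp-1s B cells was −0.05 (95% confidence interval −0.78 to 0.68). Sc5d, which encodes a late-acting sterol desaturase, divided them the other way, at 231, 225, 209, 504, 487 and 657 in MM, 145, 234, 224, 401 and 368 in Eμ-xbp-1s B cells and 148, 197, 389, 337 and 302 in nontransgenic B cells. Its MM replicates 4 to 6 were above every B cell array and replicates 1 to 3 within the range of both groups.

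The remaining sterol genes were dim or close together. Mvk, mevalonate kinase, was at 64.9 to 133 in MM, 28.7 to 94.2 in Eμ-xbp-1s B cells (3 of 5 arrays under the floor of 50) and 55.9 to 84.7 in nontransgenic B cells. Fdft1, squalene synthase, was at 72.9 to 154 in MM, 63.8 to 101 in Eμ-xbp-1s B cells and 65.4 to 75.6 in nontransgenic B cells. Lss, lanosterol synthase, was at 74.7 to 145 in MM, 105 to 158 in Eμ-xbp-1s B cells and 95.5 to 119 in nontransgenic B cells. Dhcr7, the last enzyme before cholesterol, was at 21.9 to 138 in MM, 89.9 to 170.0 in Eμ-xbp-1s B cells and 93.6 to 120.3 in nontransgenic B cells, with MM replicate 6 under the floor. Nsdhl and Hsd17b7, which act on the methylated sterol intermediates, had log2 fold changes in MM against Eμ-xbp-1s B cells of 0.20 and 0.33, and Nsdhl had a log2 fold change of −0.44 (standard error 0.15, limma adjusted p = 0.13) between the B cell groups. Mvd, the untested decarboxylase of mevalonate diphosphate, was at 18.8 to 92.4 in MM, 51.3 to 92 in Eμ-xbp-1s B cells and 61.7 to 79.7 in nontransgenic B cells.

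**Figure D3:**
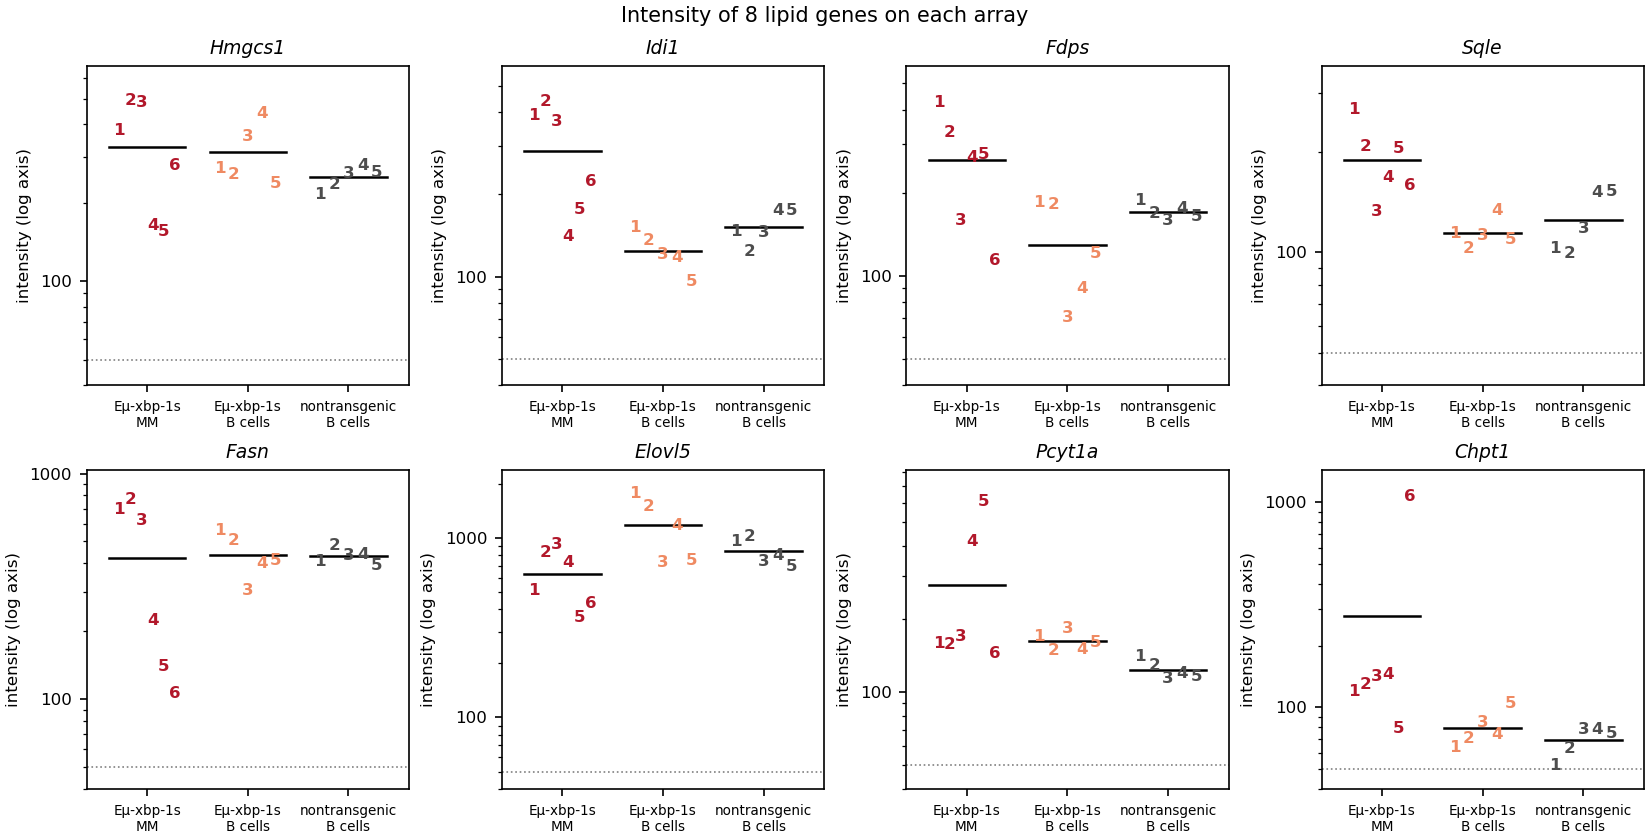
Intensity (log axis) of 8 lipid genes on each array of Eμ-xbp-1s MM, Eμ-xbp-1s B cells and nontransgenic B cells, chosen after their values were seen, with replicate numbers as points, black lines for group means and a dotted line for the floor of 50. In MM, replicates 1 to 3 lie above replicates 4 to 6 for Hmgcs1, Idi1 and Fasn, replicates 4 and 5 stand apart for Pcyt1a, and replicate 6 for Chpt1.

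For sterol transport, none of 3 genes passed the test. Abca1, the exporter that loads cholesterol onto apolipoprotein A-I, was at 743, 894, 1320.4, 2019, 1245 and 325 in MM, 1272, 1003, 396, 960.3 and 986 in Eμ-xbp-1s B cells and 1089.6, 1448, 1027, 1081 and 1011 in nontransgenic B cells. The MM arrays were spread on both sides of the B cells, with replicate 4 the highest of all 16 and replicate 6 the lowest. By this brightest probe set, the log2 fold change was −0.38 between the B cell groups and −0.25 in MM against nontransgenic B cells. Another tested probe set of Abca1 gave 0.22 and 0.35 in these comparisons, the opposite sign, and neither was called. Abcg1, its partner in export to HDL, was at 662, 697, 981, 814, 958 and 324 in MM, 816, 769, 621, 857 and 794 in Eμ-xbp-1s B cells and 523, 637, 572, 677 and 589 in nontransgenic B cells. Among the Eμ-xbp-1s B cells, replicate 3 alone lay within the nontransgenic range, and the difference did not pass, with a log2 fold change of 0.36 (standard error 0.13, limma adjusted p = 0.132). Stard4, a carrier of cholesterol between membranes, was at 363 to 605 in MM, 261 to 506 in Eμ-xbp-1s B cells and 389.6 to 442 in nontransgenic B cells.

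Among the phospholipid enzymes other than Lpin1, none of 4 passed the test. Pcyt1a, the transferase that makes CDP-choline and sets the pace of phosphatidylcholine synthesis, was at 159, 157, 169.7, 417, 605 and 144 in MM, 169, 148, 182, 149 and 159.9 in Eμ-xbp-1s B cells and 139.8, 128, 113, 119.5 and 116 in nontransgenic B cells. Both Eμ-xbp-1s groups stood above every nontransgenic array, and MM replicates 4 and 5 were far above the other 4. The difference between the B cell groups was small, with a log2 fold change of 0.39 (standard error 0.12, limma adjusted p = 0.0716), and that of MM against nontransgenic B cells, with a log2 fold change of 0.91 (standard error 0.36, limma adjusted p = 0.0918), did not pass either. The neutrophil markers summed to 60551 and 45639.6 on MM replicates 4 and 5, against 573.2 to 1514 on the other 4. On the same arrays the erythroid markers summed to 13918 and 19309, against 125.6 to 228.3 on the other 4. The mitosis genes summed to 11068 and 18324 there, against 2935 to 7801. The part of these differences in Pcyt1a was not tested.

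Chpt1, which joins choline to diacylglycerol in the last step, was at 119, 129, 141, 145, 79.1 and 1063 in MM, 63.8, 70.2, 84.6, 73.8 and 105 in Eμ-xbp-1s B cells and 52.1, 63.3, 78.1, 77.9 and 74.4 in nontransgenic B cells. MM replicate 6 alone stood apart, while the others were at or under 145, with a log2 fold change of 1.34 (standard error 0.53, limma adjusted p = 0.0919) against nontransgenic B cells. Cept1, which encodes an enzyme of the last step for both choline and ethanolamine, was at 556, 792, 722, 395, 287 and 265 in MM, 1098, 907, 685, 926 and 684 in Eμ-xbp-1s B cells and 773, 935, 851, 883 and 692 in nontransgenic B cells. MM replicates 1, 4, 5 and 6 were under every B cell array, and the differences, with a log2 fold change of −0.88 (standard error 0.30, limma adjusted p = 0.0855) against Eμ-xbp-1s and a log2 fold change of −0.84 (standard error 0.29, limma adjusted p = 0.056) against nontransgenic B cells, did not pass. Chka, choline kinase alpha, was at 234 to 459 in MM, 220.0 to 292 in Eμ-xbp-1s B cells and 190.2 to 358 in nontransgenic B cells.

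In the comparison of the B cell groups, 31 lipid genes were tested. The arrays did not overlap in the higher direction for 3 (Lpin1, Pcyt1a and Scap), beside 6.54% of all named genes, and in the lower direction for 0, beside 2.30%. In MM against nontransgenic B cells, of 35 tested, they did not overlap for 3 in the higher direction (Lpin1, Pcyt1a and Chpt1, all of the phospholipid branch), beside 7.38% of all named genes, and for 1 in the lower (Scd1), beside 8.77%. The median log2 fold change over the 5 phospholipid genes in that comparison was 0.91, with 4 positive and Cept1 negative (−0.84). Chpt1 had entered through its MM arrays, so neither the count nor the median is evidence for the branch.

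**Figure D4:**
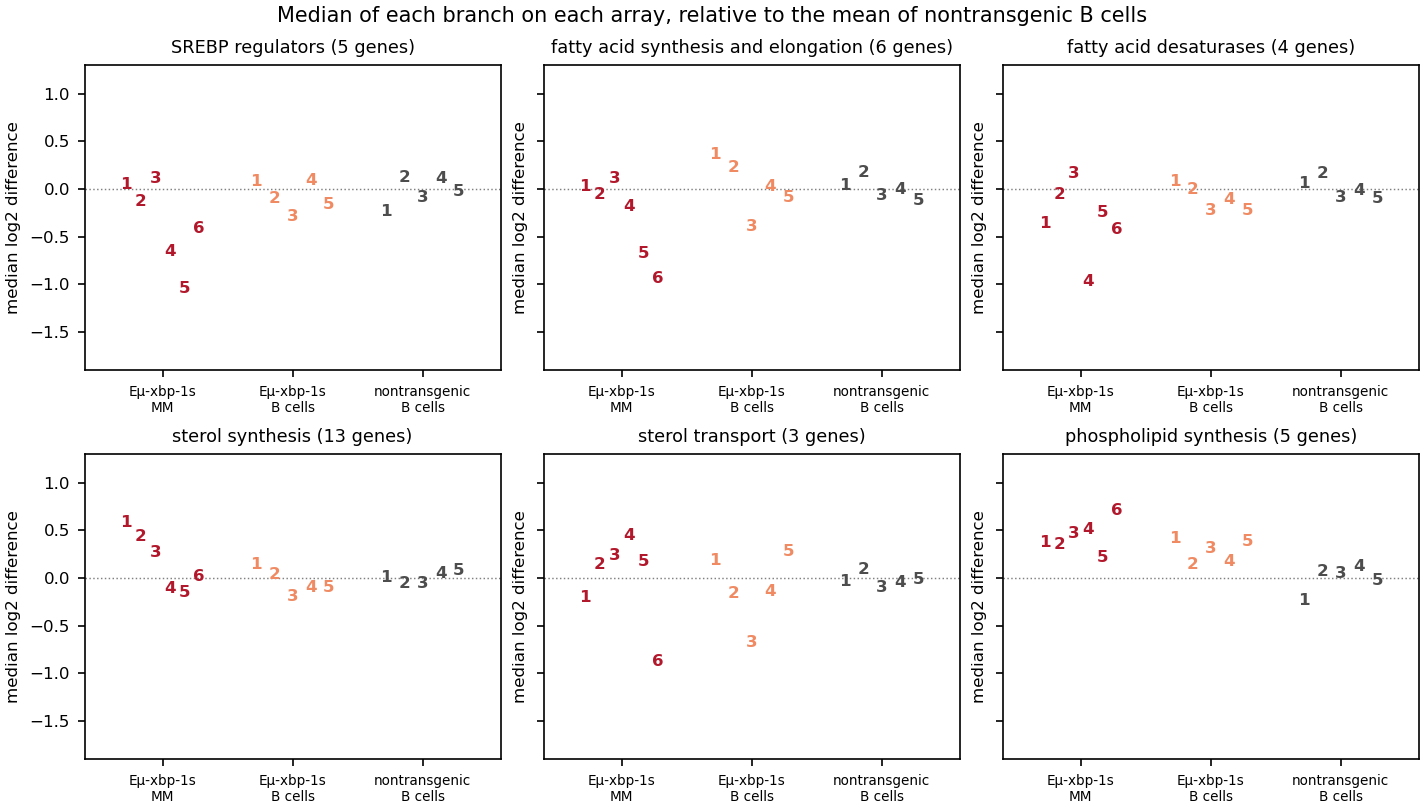
Median over the genes of each branch of the log2 intensity minus the mean log2 intensity of nontransgenic B cells (vertical axis), on each array of Eμ-xbp-1s MM, Eμ-xbp-1s B cells and nontransgenic B cells, with replicate numbers as points. All 6 MM and all 5 Eμ-xbp-1s B cell arrays lie above all nontransgenic arrays for phospholipid synthesis, and MM replicates 1 to 3 lie above replicates 4 to 6 for sterol synthesis. For the 5 phospholipid genes the lowest Eμ-xbp-1s B cell array (0.14, replicate 2) lies close to the highest nontransgenic array (0.12, replicate 4).

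The lipid genes varied more between MM arrays than between B cell arrays. Of the 36 genes, 34 had an intensity above 100 on more than 20% of the 16 arrays. Over these 34, the within-group standard deviation of the log2 values had a median of 0.51 in MM. This median was 0.35 in Eμ-xbp-1s B cells and 0.19 in nontransgenic B cells. Over 11065 named genes the medians were 0.44, 0.31 and 0.19 in the same order. A gene bright on MM arrays alone can be among the 34, so the MM spread is not independent of that filter. Among the 36, Chpt1 (1.32) and Fasn (1.26) had the largest standard deviations in MM. Relative to the mean of nontransgenic B cells, the median over the 13 sterol genes was 0.58, 0.44, 0.27, −0.11, −0.15 and 0.02 on MM replicates 1 to 6 on the log2 scale. Replicates 1 to 3 were thus above the other 3 for the sterol branch, and for the fatty acid synthesis branch replicates 5 and 6 were lowest, at −0.67 and −0.94.

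The same MM arrays also differed in the markers of other cells. The summed mature B cell markers were 13653, 12762 and 12718 on MM replicates 1 to 3, against 1386, 711.6 and 6149.7 on replicates 4 to 6, and the summed T cell markers 2711, 3765 and 3372, against 952.4, 572.1 and 640.8. Erythroid markers summed to 13918 and 19309 on replicates 4 and 5, against 125.6 to 228.3 on the other 4. The 4 measured adipocyte markers summed to 608 to 1524 in MM, 161 to 285 in Eμ-xbp-1s B cells and 126 to 166 in nontransgenic B cells. Of these, Adipoq was at 1.85 to 190.5 in MM and under the floor of 50 on every B cell array. Cidec, at 22.5 to 51.5 in MM, 16.7 to 45.1 in Eμ-xbp-1s B cells and 26.9 to 45.0 in nontransgenic B cells, and Lep, at 39.9 to 96.7 in MM, 44.5 to 79.0 in Eμ-xbp-1s B cells and 62.9 to 99.8 in nontransgenic B cells, overlapped in all groups, so that the difference in the sum lay mostly in Fabp4. Fabp4, which macrophages and endothelium express too, was at 471 to 1334 in MM, 66.1 to 160.2 in Eμ-xbp-1s B cells and 14.6 to 36.3 in nontransgenic B cells. The part of these cell contents in the division of the MM arrays was not tested.

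**Figure D5:**
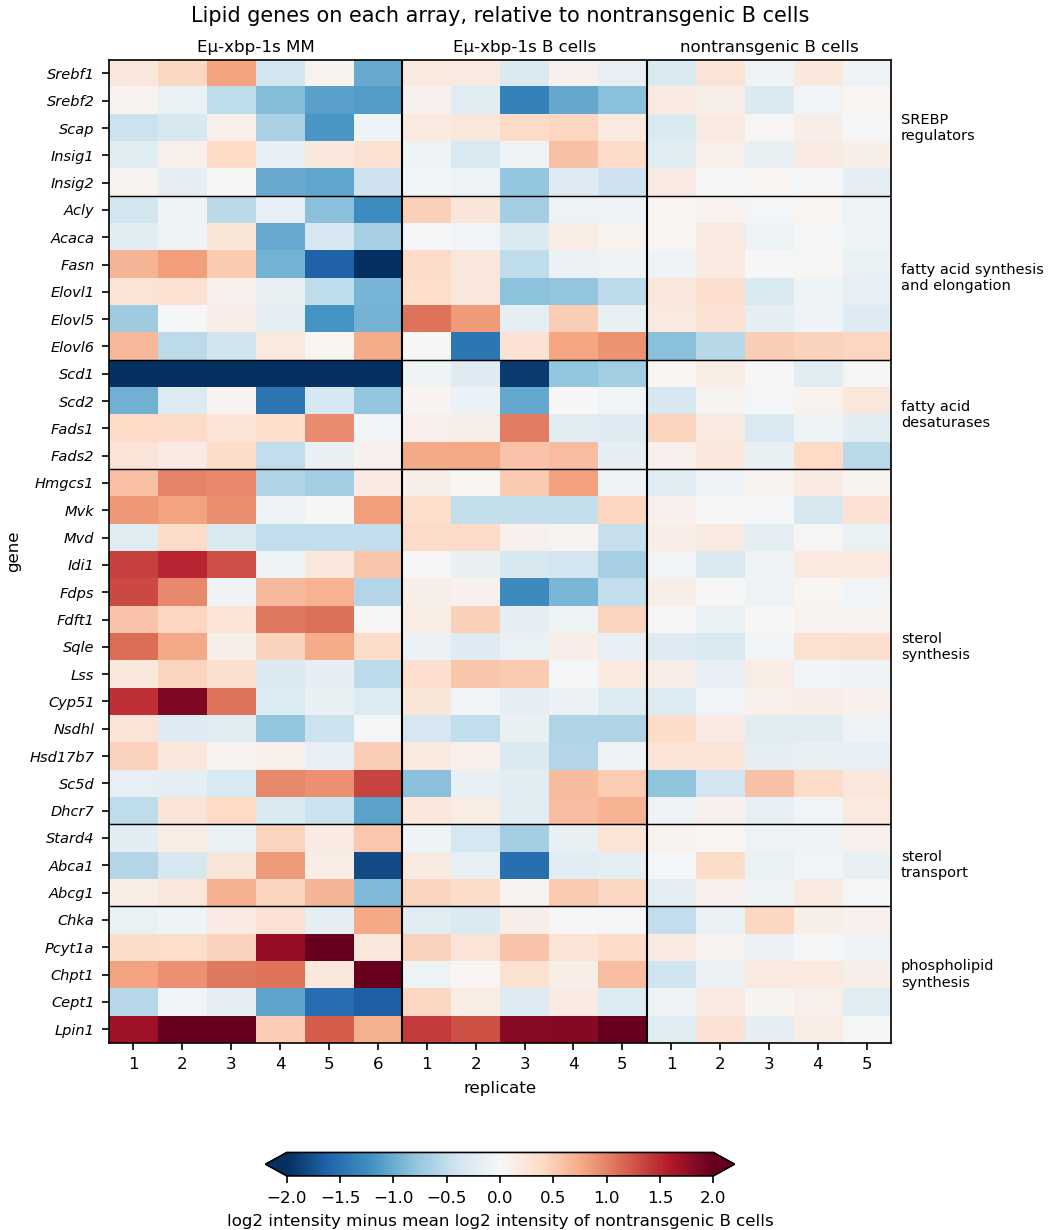
Log2 intensity of each of the 36 lipid genes (rows, grouped by branch) minus the gene's mean log2 intensity in nontransgenic B cells, on each array (columns) of Eμ-xbp-1s MM, Eμ-xbp-1s B cells and nontransgenic B cells, with red above and blue below that mean and the scale ending at −2 and 2. Scd1 is blue on all 6 MM arrays, Lpin1 is red on all 11 Eμ-xbp-1s arrays, and the sterol genes Idi1 and Cyp51 are reddest on MM replicates 1 to 3.

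Of 60 further genes of the same pathways that were measured and chosen by their function, again with earlier results known, most did not pass. Between the B cell groups 2 of 47 tested were called higher (4.26%, beside 3.28% of all named genes) and 0 lower (beside 0.192%). Acss2, which makes acetyl-CoA from acetate, was at 219, 205, 185, 217 and 220.1 in Eμ-xbp-1s and 91.8, 101, 76.3, 94.2 and 106 in nontransgenic B cells, without overlap, with a log2 fold change of 1.16 (standard error 0.12, limma adjusted p = 9.6e-05). Npc2, which hands cholesterol out of lysosomes, was at 3083, 2808, 3024, 2644 and 2576 in Eμ-xbp-1s and 1528, 1665, 1497, 1679 and 1494 in nontransgenic B cells, also without overlap, with a log2 fold change of 0.84 (standard error 0.11, limma adjusted p = 0.000491).

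In MM against Eμ-xbp-1s B cells 2 of 48 were called lower (4.17%, beside 1.67% of all named genes) and 0 higher (beside 1.49%), and against nontransgenic B cells 4 of 46 were called lower (8.70%, beside 4.76%) and 0 higher (beside 4.66%). These differences in share were not tested. Ggps1, which makes geranylgeranyl diphosphate from the product of Fdps, was at 195, 213, 307, 159.6, 198 and 184 in MM, 431, 370.1, 421, 416 and 344 in Eμ-xbp-1s B cells and 383, 399, 356, 402 and 368 in nontransgenic B cells. No MM array reached a B cell array, with a log2 fold change of −0.95 (standard error 0.18, limma adjusted p = 0.00768) against Eμ-xbp-1s and −0.90 (standard error 0.16, limma adjusted p = 0.00294) against nontransgenic B cells. Cds2, which turns phosphatidic acid, the substrate of lipin 1, into CDP-diacylglycerol, was at 249 to 544 in MM, 659.6 to 1008 in Eμ-xbp-1s B cells and 613 to 721 in nontransgenic B cells, with log2 fold changes of −1.18 (limma adjusted p = 0.00673) and −0.96 (0.00531). Etnk1, ethanolamine kinase, and Mylip, which encodes a ligase that marks the LDL receptor for degradation, were called lower in MM than in nontransgenic B cells, with log2 fold changes of −1.33 (0.00614) and −1.58 (0.00158).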

How the data were processed

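The sample labels gave the groups and replicate numbers. The deposited table holds, for every probe set, the intensity on each array, not log-transformed. With dChip, the authors had scaled the arrays against a baseline array of median intensity and computed model-based expression as perfect match minus mismatch signal. No value is below 1, and 0.764% of them equal it. Presence calls were not used here. The platform annotation gave 1 gene for 34958 of 45101 probe sets (34754 updated through their gene identifier), several for 932 and none for 9211, and probe sets with several genes were left unnamed. The 64 controls were left out.

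Values under 50 were set to 50, since dim values from the subtraction of mismatch signal have no stable logarithm. A probe set entered the test if it exceeded 100 on more than 20% of the compared arrays. Log2 values were fitted with lmFit and eBayes of limma 3.58.1 (R 4.3.3), separately for each pair of groups, with Benjamini-Hochberg adjustment over all 22194 (MM against Eμ-xbp-1s B cells), 21894 (MM against nontransgenic B cells) or 20596 (Eμ-xbp-1s against nontransgenic B cells) probe sets and a threshold of 0.01. The fit was tested on simulated data with 200 changed probe sets. SAM, the test of the study's methods, works by permuting samples and was not run here. Level differences between genes were not compared, since probe sets differ in brightness. Python 3.11.15 with pandas 2.3.3, numpy 2.4.6 and matplotlib 3.10.9 made tables and plots. The number of arrays limits the precision.

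The genes, the further pathway lists and the marker lists were chosen with earlier results of these data known. All lipid genes may be named, with the value of every array for those past the test and those whose groups differed most and ranges for the others. Of the further pathway genes, only those past the test are named. Replicate numbers recur in every group. Same-numbered Eμ-xbp-1s and nontransgenic B cell arrays deviated together from their group means (correlations of 0.51, 0.53, 0.22, 0.18 and 0.51 across probe sets), all above the limit of 0.1 set for pairs. For 3 of the 5 numbers, however, the Eμ-xbp-1s array correlated better with a nontransgenic array of another number, and no source says what a number marks, so the fits reported have no block and the blocked fit is an alternative. In MM the correlations were not all above 0.1, so there the samples share only a number. The following alternatives were run: each array left out in turn, MM replicates 4 and 5 left out, the replicate block, a floor of 16 or of 100, a pseudocount of 50, no filter, a filter on the standard deviation (above 0.3), quantile normalization, median scaling, trended robust variance, a single fit of all 3 groups, an adjusted p under 0.05, and the average over the probe sets of a gene.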

Additional observations from a re-analysis of the deposited data

Results flagged for a closer look

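In 7 of 108 sets of arrays (36 genes in 3 groups), 1 array stood far from the others of its group by Dixon's criterion, where chance alone gives about 1 in 20. The criterion was applied to log2 values with intensities under 50 set to 50. Chpt1 was at 1063 on MM replicate 6, against 79.1 to 145 on the other 5 MM arrays. Abcg1 was at 324 on the same MM replicate 6, against 662 to 981 on the others. Mvd, a gene too dim to be tested, was at 92.4 on MM replicate 2, against 18.8 to 59.5 on the others. Of those others, 3 were under the floor of 50 and were set to it, so this flag depends on the floor.

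Among the transgenic B cells, replicate 3 was low for Abca1 (396, against 960.3 to 1272) and for Scd2 (354, against 664 to 754). The same array had the lowest mature B cell marker sum of its group and the highest erythroid marker sum (8123, against 766.8 to 1655), and whether these bear on its lipid genes was not tested. Fads2 was at 133 on Eμ-xbp-1s B cell replicate 5, against 223 to 256. In nontransgenic B cells, Abca1 was at 1448 on replicate 2, against 1011 to 1089.6 on the other 4.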

How the results depend on the processing

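Between Eμ-xbp-1s and nontransgenic B cells the result did not move: 1 lipid gene (Lpin1) was called higher and 0 lower under all 12 alternatives run and without each of the 10 arrays, and the replicate block left Lpin1 at an adjusted p of 0.000432. In MM against Eμ-xbp-1s B cells, the 0 called higher became 2 at an adjusted p under 0.05 (Idi1 and Sqle), 1 with all 3 groups in a single fit (Idi1), 1 with the replicate block (Fdps) and 1 without MM replicates 4 and 5 (Idi1). The 1 called lower (Scd1) became 0 with no filter on low values and 0 with the replicate block, at adjusted p values of 0.0114 and 0.0125. In MM against nontransgenic B cells, the 1 called higher (Lpin1) became 0 with a floor of 100, 0 with a pseudocount of 50, 0 with no filter, 0 with the replicate block, and 3 without MM replicates 4 and 5 (Idi1, Lpin1 and Mvk). Leaving out 1 array gave 0 to 1 there: Lpin1 was lost without any nontransgenic array or without MM replicate 1, 2 or 5. The block leaves out MM replicate 6, which has no partner, but Scd1 and Lpin1 stayed called when that array alone was left out (adjusted p values of 0.00216 and 0.00406). With no filter more probe sets enter the adjustment, and the cause of the other losses was not tested. Scd1 stayed called lower in MM than in nontransgenic B cells under every alternative and without each array, with log2 fold changes of −4.00 to −2.87. Among lipid genes at an unadjusted p under 0.05 in the fit reported, no recomputed fold change reversed its sign. For the other lipid genes this was not checked. Median scaling moved the median of all probe sets in MM against nontransgenic B cells to −0.14 on the log2 scale, against −0.03 as deposited.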
